A study of Mus musculus with 10 samples.

Results

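Trophoblast regulators and simple keratins were followed on expression arrays of mouse embryonic stem (ES) cells in which dCas9-VP160 (a nuclease-dead Cas9 carrying copies of the Vp16 transcriptional activator) was directed to the promoter of the long noncoding RNA Hottip or of the neighbouring gene Hoxa13. The set holds 10 genes, the transcription factors Eomes, Elf5, Gata3, Tfap2c, Tead4 and Hand1 and the keratins Krt7, Krt8, Krt18 and Krt19, and every probe whose transcript accession belongs to one of them was taken. This gave 10 of the 20972 genes named on the array, with 11 of its 55681 probes, 2 for Eomes and 1 for each other gene. The question put to them was whether the cells moved towards trophectoderm, the outer epithelium of the blastocyst.

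The cells were E14 ES cells of 129/Ola background, grown feeder-free on gelatin in the presence of Lif, the cytokine that holds them in the undifferentiated state. The Hottip gRNA group (4 arrays) received a pool of guide RNA plasmids against the Hottip promoter with dCas9-VP160. The Hoxa13 gRNA group (3 arrays) received a pool against the Hoxa13 promoter with the same activator. The control group (3 arrays) received control guides, which the methods pair with dCas9 alone, and the paper describes its array control as lacking VP160. On that description the guide groups differ from the control in the activator as well as in the guides. All groups shared plasmid transfection, puromycin selection (24 hrs at 2 μg/ml) and RNA extraction 48 hrs after transfection, and each array came from its own biological replicate. RNA was from the bulk population, in which a change in a share of the cells and a change in RNA per cell cannot be told apart.

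Trophectoderm separates from the pluripotent inner cell mass in the blastocyst and founds the trophoblast of the placenta. Tead4, the DNA-binding partner of the Hippo pathway coactivator Yap1, acts near the top of this programme, upstream of Cdx2 and Gata3. Tfap2c, Eomes and Elf5 sustain trophoblast stem cells, and Hand1 drives differentiation to giant cells. Trophectoderm is also an epithelium, and its filaments are built from simple keratins, in which a type II keratin (Krt7 or Krt8) pairs with a type I keratin (Krt18 or Krt19).

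Levels are given as log2 of the processed signal relative to the 75th percentile of the same array, so a level of 0 means a signal equal to that percentile. Levels of different probes cannot be set against each other as amounts of RNA, and each is compared only between arrays. Differences were fitted with limma over all 55681 probes and adjusted (Benjamini-Hochberg) over those well above background on 3 or more arrays. A gene was called where its adjusted p-value was under 0.05. Of the 10 genes, 8 entered this test. Elf5 and Hand1 never reached a signal well above background.

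Hoxa13 itself was looked at first, as a check of the labels. Both of its probes were detected well above background with Hottip gRNAs (4 of 4 arrays), and with neither the control (0 of 3) nor Hoxa13 gRNAs (0 of 3), so a rise of the targeted gene was not detectable for the Hoxa13 pool and results for that group rest on its label. Over both probes the levels ran from 2.58 to 4.16 after Hottip gRNAs, from −6.12 to −3.46 in the control and from −5.60 to −3.68 on the arrays labelled Hoxa13 gRNA. The last overlapped the control, so the label of that group is not borne out by its target, and this holds for every direction given for it. Hottip itself was matched to no probe. All 9 ES cell markers measured, Pou5f1 among them, stood well above background on every array, as did 31.9% to 41.4% of probes per array. Hoxa13 gRNA replicates 1 and 2 lay on 1 slide and the other 8 arrays on another. Over all tested probes the median log2 difference was −0.03 for Hottip gRNAs against the control and 0.19 for Hoxa13 gRNAs against the control, where it reached 0.49 for bright probes (mean level over 2). For Hottip gRNAs against Hoxa13 gRNAs it was −0.26, and −0.43 for bright probes. Over the 32837 probes outside the test the median was 0.42 for Hottip gRNAs against the control and 0.13 for Hoxa13 gRNAs against the control.

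After Hottip gRNAs, Gata3, Krt7 and Krt19 were higher than in the control, Gata3 by 6.58-fold and Krt19 by 3.89-fold as fitted and Krt7, not well above background in the control, by at least 3.74-fold, and no tested gene of the set was lower. These were 3 of the 8 genes tested, where 0.718% of all tested probes were called and 0.425% were called higher. Krt7 entered the test only through its Hottip gRNA arrays, being well above background on 0 of 3 control and 0 of 3 Hoxa13 gRNA arrays. Its place in this and the following counts is therefore partly set by the filter. Groups did not overlap for 7 of the 8 genes, all higher after Hottip gRNAs, beside 5.95% of all tested probes, and 6 of the 8 had an unadjusted limma p-value under 0.05 with the difference upward, beside 3.76%. The genes were chosen with earlier results of these data known, so the shares over all probes are given for scale and do not test the set. The median log2 difference was 1.30 over all 10 genes. After Hoxa13 gRNAs limma called 0 of the 8, where 0.175% of tested probes were called, and 1 (Krt7, higher) had an unadjusted p-value under 0.05, beside 7.98% of tested probes.

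**Figure D1:**
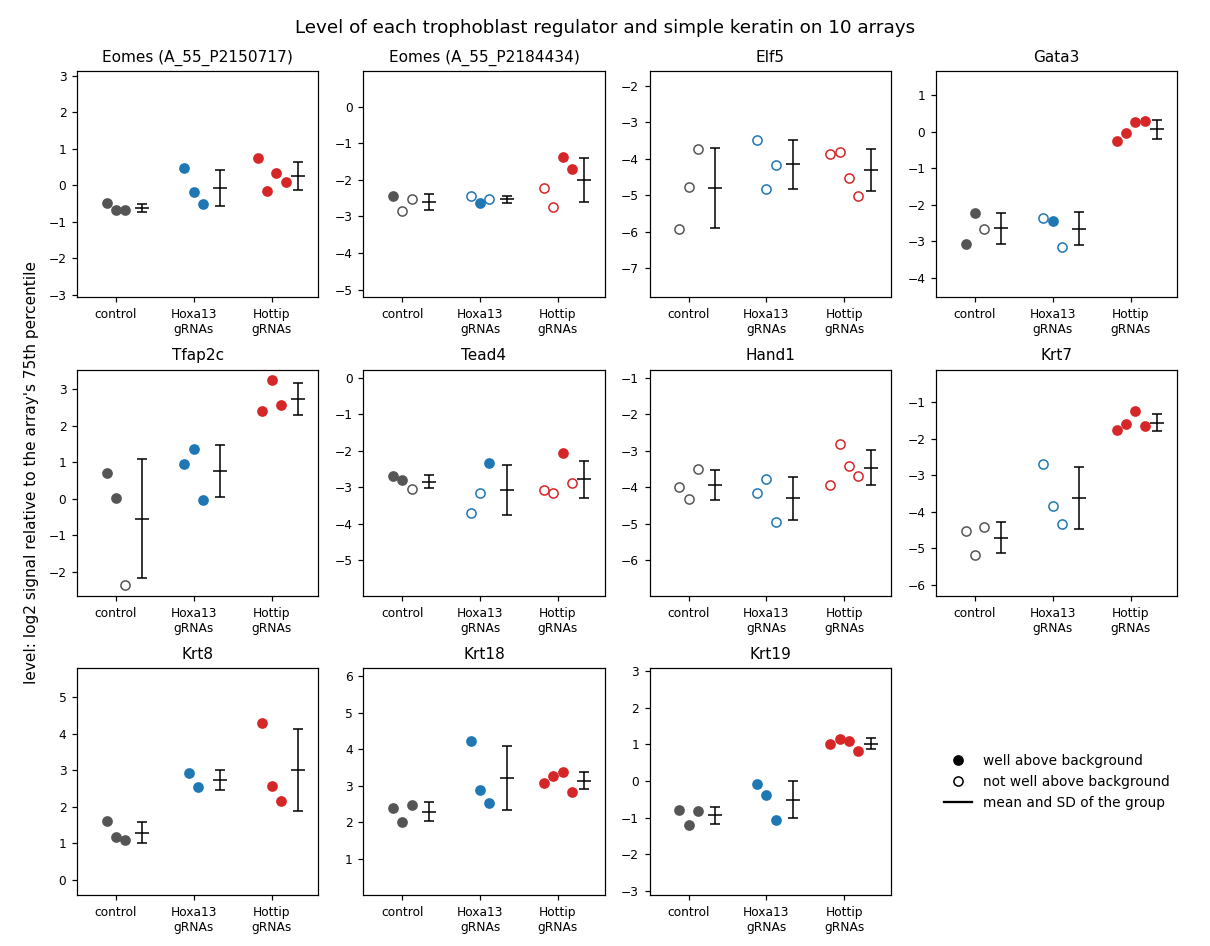
Level of each probe on each array (y axis, log2 signal relative to the 75th percentile of the array; every panel spans the same number of log2 units), for the control, Hoxa13 gRNA and Hottip gRNA groups. Filled points were well above background, open points were not, bars give the mean and SD of a group, and spots marked as outliers are left out. The 4 Hottip gRNA points lie above all control points for Gata3, Krt7, Krt18 and Krt19, and the control points of Krt7 are all open.

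Gata3, a zinc-finger factor that promotes trophoblast fate in parallel with Cdx2, had levels of −0.24, −0.04, 0.26 and 0.30 on Hottip gRNA arrays 1 to 4 and of −3.08, −2.22 and −2.65 on control arrays 1 to 3. On Hoxa13 gRNA arrays 1 to 3 it was at −2.35, −2.44 and −3.17. All Hottip gRNA arrays were above all others, and the Hoxa13 gRNA and control arrays overlapped. The difference from the control was 2.72 on the log2 scale (SE 0.37, limma adjusted p = 0.00649; two-sided exact permutation, p = 0.0286, which is the minimum for 4 arrays against 3). Against Hoxa13 gRNAs it was again 2.72 (SE 0.37, limma adjusted p = 0.0149), whereas Hoxa13 gRNAs and the control differed by −0.002 (SE 0.39). On the slide with all 3 groups, which leaves 1 Hoxa13 gRNA array, the difference between the guide pools was 3.24 and was not called (adjusted p = 0.0716), and it was not called without Hoxa13 gRNA replicate 2 (2.83, adjusted p = 0.0736) or replicate 3 (2.46, adjusted p = 0.0619). Detection well above background was reached in 4 of 4 Hottip gRNA, 2 of 3 control and 1 of 3 Hoxa13 gRNA arrays. Around the probe, the area of 11 by 11 spots was brighter on Hottip gRNA replicate 1 (local median −2.45) than on the other 9 arrays (−5.31 to −4.21). With each array's local median subtracted, a correction chosen after seeing the data, the difference from the control was 1.95 and was not called (adjusted p = 0.327), and without Hottip gRNA replicate 1 it was 2.82 and was called (adjusted p = 0.0140).

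Tfap2c, the AP-2 factor of trophoblast stem cells and germ cells, was not called. It stood at 2.39, 3.23 and 2.57 on Hottip gRNA arrays 2 to 4, with the spot of array 1 marked as an outlier and left out, and at 0.71, 0.03 and −2.37 on control arrays 1 to 3. Hoxa13 gRNA arrays had 0.95, 1.36 and −0.04. The Hottip gRNA arrays were above every other array, while control array 3 lay far below the other controls and the only one without detection well above background. The difference from the control was 3.28 (SE 0.74, n = 3 against 3, limma adjusted p = 0.115; exact permutation p = 0.1, the minimum for 3 against 3). Without control replicate 3 it was 2.36 (adjusted p = 0.0909), and with outlier spots kept it was 3.00 (adjusted p = 0.159).

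Eomes, the T-box factor of trophoblast stem cells and also of early mesoderm and endoderm, had levels of 0.76, −0.14, 0.33 and 0.10 on the Hottip gRNA arrays and of −0.49, −0.69 and −0.68 on the control arrays at its brighter probe (A_55_P2150717). The groups did not overlap, and the difference of 0.88 (SE 0.37) did not pass the test (limma adjusted p = 0.553). At the other probe (A_55_P2184434), well above background on 4 of 10 arrays, the difference was 0.60 (SE 0.38) and the groups overlapped. After Hoxa13 gRNAs the brighter probe had levels of 0.46, −0.18 and −0.51, which reached from below the lowest to near the highest Hottip gRNA array.

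Tead4 levels were −3.07, −3.15, −2.06 and −2.87 on Hottip gRNA arrays and −2.70, −2.79 and −3.04 on control arrays, and the groups overlapped throughout. The difference was 0.06 (SE 0.42, limma adjusted p = 0.999), and on 4 of 10 arrays it was detected well above background, so a small change was not detectable.

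Elf5, an ETS factor that marks committed trophoblast stem cells, and Hand1, a basic helix-loop-helix factor of giant cells, had only upper limits. Elf5 ranged from −5.01 to −3.81 after Hottip gRNAs and from −5.91 to −3.74 in the control, a difference of 0.50 (SE 0.56), and its signal did not exceed the local background on any of the 10 arrays by the scanner software's test. Hand1 ranged from −3.95 to −2.81 and from −4.32 to −3.51, a difference of 0.48 (SE 0.42). Both groups overlapped for both genes, and both differences lay near the median of 0.42 over all probes outside the test. A level below background was not detectable here for either gene.

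Among the keratins, Krt7, a type II keratin of ducts and of trophoblast, was well above background after Hottip gRNAs and in neither other group. By the scanner software's weaker test its signal exceeded the local background on 2 of 3 control arrays and on 3 of 3 Hoxa13 gRNA arrays. Hottip gRNA arrays had levels of −1.77, −1.60, −1.24 and −1.66, control arrays −4.53, −5.19 and −4.41, and Hoxa13 gRNA arrays −2.70, −3.85 and −4.33. The Hottip gRNA arrays exceeded all others, and the Hoxa13 gRNA arrays lay between without touching either group. The difference from the control was 3.14 (SE 0.43, limma adjusted p = 0.00684; exact permutation p = 0.0286). With 4 of 4 arrays well above background against 0 of 3, this is an at least 3.74-fold higher signal, the control being set at the higher of its own value and the dimmest probe well above background on each array. Without control replicate 2 the difference was 2.90 (adjusted p = 0.0538). Against Hoxa13 gRNAs, on whose arrays the probe was not well above background either, Krt7 was at least 3.16-fold higher by the same bound, with a difference of 2.06 that did not pass the test (SE 0.43, limma adjusted p = 0.0928). After Hoxa13 gRNAs its mean log2 level was 1.09 above the control (SE 0.46, limma adjusted p = 0.447, unadjusted p = 0.0379), and no fold is read from this, since the probe was not well above background in either group.

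Krt19, the smallest type I keratin, had levels of 1.00, 1.16, 1.10 and 0.82 on Hottip gRNA arrays, −0.79, −1.20 and −0.83 on control arrays and −0.09, −0.38 and −1.06 on Hoxa13 gRNA arrays. The probe was detected well above background on every array, the Hottip gRNA arrays were above all others, and the remaining groups overlapped. The difference from the control was 1.96 (SE 0.34, limma adjusted p = 0.0262; exact permutation p = 0.0286) and that from Hoxa13 gRNAs 1.53 (SE 0.34, limma adjusted p = 0.109). The call was a narrow one: over the 24 alternatives in processing and samples the difference stayed between 1.51 and 2.22, and 10 of the 24 kept the adjusted p under 0.05, with a range of 0.00672 to 0.212.

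Krt8 and Krt18, the pair that forms the main filaments of trophectoderm and of other simple epithelia, were bright in all groups and were not called. Krt8 stood at 4.29, 2.57 and 2.16 on Hottip gRNA arrays 2 to 4, at 1.61, 1.17 and 1.08 on the control arrays and at 2.92 and 2.54 on Hoxa13 gRNA arrays 1 and 3. The spots of Hottip gRNA array 1 and Hoxa13 gRNA array 2 were marked as outliers and left out. Both guide groups were above the control and overlapped each other. The difference from the control was 1.72 after Hottip gRNAs (SE 0.57, n = 3 against 3, limma adjusted p = 0.392) and 1.44 after Hoxa13 gRNAs (SE 0.64, n = 2 against 3, limma adjusted p = 0.456). Without Hottip gRNA replicate 2 the first was 1.08, and with local medians subtracted it was 3.46, the control areas being brighter by 1.74 on average.

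Krt18 had levels of 3.08, 3.27, 3.38 and 2.84 on Hottip gRNA arrays, 2.41, 2.01 and 2.48 on control arrays and 4.22, 2.88 and 2.55 on Hoxa13 gRNA arrays. Here too both guide groups were above all control arrays, and Hoxa13 gRNA array 1, on the other slide, was the highest. Krt8 and Krt18 are both among the bright probes (mean level over 2). Over all of those the median log2 difference from the control was 0.49 after Hoxa13 gRNAs and 0.10 after Hottip gRNAs. For Hottip gRNAs against Hoxa13 gRNAs the median over bright probes was −0.43. The differences from the control were 0.84 (SE 0.43, limma adjusted p = 0.714; exact permutation p = 0.0286) and 0.92 (SE 0.46, limma adjusted p = 0.470), and the guide pools differed from each other by −0.07 (SE 0.43). The spike-in slope, which gauges dynamic range, was 1.16 on that array and 0.90 to 0.98 on the others, and its part in these levels was not tested. On the slide with all 3 groups, Krt18 after Hoxa13 gRNAs was 0.25 above the control.

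**Figure D2:**
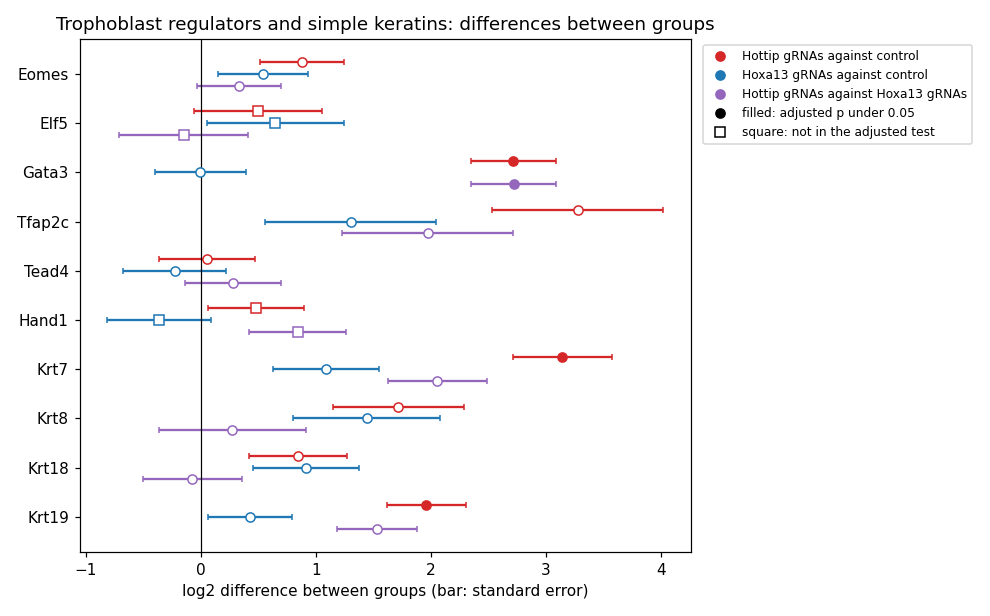
Log2 difference (x axis) of each of the 10 genes between groups, with the standard error of the limma fit as bar, at the brighter Eomes probe and the only probe of the others. Filled points passed an adjusted p of 0.05, and squares were outside the adjusted test. The comparisons against the control share the same 3 control arrays. Gata3 is filled against both the control and the Hoxa13 gRNA group, Krt7 and Krt19 against the control only.

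After Hoxa13 gRNAs the groups did not overlap for 3 of the 8 tested genes (Krt7, Krt8 and Krt18, all higher), beside 16.7% of tested probes that were higher without overlap. Differences from the control over the 10 genes ranged from −0.36 (Hand1) to 1.44 (Krt8), with a median of 0.60. In the direct comparison of the guide pools Gata3 was the 1 gene called of the 8 tested, where 0.381% of tested probes were called, and Gata3, Tfap2c, Krt7 and Krt19 were higher after Hottip gRNAs without overlap, beside 4.98%. Since both comparisons against the control use the same control arrays, their values are given side by side only.

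Gata3 and Krt7 are the called genes with a promoter in the RefSeq table (GRCm38.p6), which holds windows of 250 bases before to 50 after an annotated start for 6 of the 10 genes, with 2 windows for Elf5, and none was found in it for Tfap2c, Tead4, Hand1 or Krt19. They are printed here because they were raised together, 5′ to 3′ on the gene's strand, with capitals for matches to the AP-2 motif GCCNNNGGC, the core that AP-2 factors such as Tfap2c bind. The Gata3 window is at chr2:9878551-9878850 on the minus strand and the Krt7 window at chr15:101412153-101412452 on the plus strand.
Gata3: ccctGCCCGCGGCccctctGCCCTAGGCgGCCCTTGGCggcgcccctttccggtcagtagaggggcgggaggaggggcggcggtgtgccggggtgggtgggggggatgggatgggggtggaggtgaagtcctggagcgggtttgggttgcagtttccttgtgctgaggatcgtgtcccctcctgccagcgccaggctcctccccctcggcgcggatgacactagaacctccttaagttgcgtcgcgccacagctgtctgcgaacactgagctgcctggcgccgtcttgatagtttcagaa
Krt7: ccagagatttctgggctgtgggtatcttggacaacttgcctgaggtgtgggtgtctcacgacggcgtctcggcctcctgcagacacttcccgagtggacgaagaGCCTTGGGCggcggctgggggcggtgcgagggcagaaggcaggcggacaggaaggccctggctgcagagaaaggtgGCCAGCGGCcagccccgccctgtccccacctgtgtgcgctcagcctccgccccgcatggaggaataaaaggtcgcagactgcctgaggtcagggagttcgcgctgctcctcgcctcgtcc

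The AP-2 motif, which reads the same on both strands, matched 3 times in the Gata3 window and 2 times in the Krt7 window, and 16.6% of the 32851 promoter windows of the table held a match. The Gata3 and Krt7 windows are rich in G and C (67.3% and 66.3%), as the motif is. Krt18 had 1 match and the windows of Eomes, Elf5 and Krt8 had 0. Also searched, on both strands, were GATAA (GATA factors, in 25.4% of windows), GGAATG (TEAD factors, 14.7%) and TTTATNG (CDX factors, 10.9%). GATAA matched 1 time in the windows of Krt8 and Krt18 and in 1 Elf5 window, GGAATG matched 1 time in the other Elf5 window, and TTTATNG was not among the letters of any of the 7 windows. A match is a description of the sequence, and these arrays measured no binding.

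The other genes of the pathway were described from lists. Of 12 other trophoblast stem cell regulators, all tested, 1 was called higher and 0 lower after Hottip gRNAs, and the median log2 difference was 0.02. The called gene was Cdx2, the homeobox factor that specifies trophectoderm and, later, hindgut, at −0.10, 0.32, 0.59 and 0.46 on Hottip gRNA arrays and at −3.85, −3.74 and −3.63 on control arrays. The groups were separated by over 3 log2 units, and the signal was at least 13.3-fold higher (log2 difference 4.06, SE 0.39, limma adjusted p = 0.00105). Cdx2 too entered the test only through its Hottip gRNA arrays, being well above background on 0 of 3 control and 1 of 3 Hoxa13 gRNA arrays. On Hoxa13 gRNA arrays Cdx2 was at −2.17, −3.33 and −3.48, above the controls and 3.31 below the Hottip gRNA mean (SE 0.39, limma adjusted p = 0.00679). Klf5 was 0.41 lower (adjusted p = 0.997), and Id2 had the most negative difference, −1.05 (adjusted p = 0.811). Gata2, a paralogue of Gata3, was 1.34 above the control (adjusted p = 0.319) and 2.78 above Hoxa13 gRNAs (limma adjusted p = 0.0235, at least 2.89-fold), well above background on 2 of 4 Hottip gRNA and 0 of 3 Hoxa13 gRNA arrays.

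Of the placental and differentiated trophoblast genes, 14 were matched to a probe and 9 tested, with 1 called higher and 0 lower after Hottip gRNAs and a median log2 difference of 0.71 over the 14. Ascl2, the basic helix-loop-helix factor of spongiotrophoblast, rose from −0.95, −1.29 and −1.37 on control arrays to 0.82, 1.51 and 1.20 on Hottip gRNA arrays 2 to 4, with the spot of array 1 left out as an outlier. The groups did not overlap (log2 difference 2.38, SE 0.36, n = 3 against 3, limma adjusted p = 0.0146), nor did Hottip and Hoxa13 gRNAs (2.29, adjusted p = 0.0324). Peg10, Rhox6 and Rhox9, named after their values were seen, differed from the control by 1.98, 1.69 and 1.39 without overlap and were not called (adjusted p = 0.122, 0.0951 and 0.328), and Rhox6 and Rhox9 are close paralogues whose probes may share signal. Gcm1, the syncytiotrophoblast factor, differed by 0.17 with overlap. Of the genes outside the test, Plac1, also named after its values were seen, had a log2 difference of 1.72 after Hottip gRNAs. It was detected well above background there in 1 of 4 arrays and in 0 of 3 controls, so no fold is read from this.

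The remaining lists held no called gene after Hottip gRNAs. In the Hippo and TEAD list (14 genes, 13 tested) 0 were called and 0 had an unadjusted p-value under 0.05, with differences from −0.89 (Tead3) to 0.44 (Nf2) and a median of −0.07. Tead1, a relative of Tead4, differed by 0.32. Of 12 other keratins 3 were tested, and of these 3, 0 were called and 0 had an unadjusted p-value under 0.05. Another 6 had no array well above background. Krt20, among these 6, had the largest difference of the list, 1.12 without overlap (SE 0.39, limma unadjusted p = 0.0155). It lay outside the test, where the median over all probes was 0.42, and no fold is read from its dim signal. Of 12 epithelial junction genes, all tested, 0 were called and 0 had an unadjusted p-value under 0.05, with differences from −0.61 (Jup, plakoglobin) to 0.79 (Dsp, desmoplakin) and a median of −0.02. Of these, 2 (Dsp and Pkp2) were higher without overlap and 0 lower, where 5.95% of tested probes were higher without overlap. Epcam differed by 0.22.

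**Figure D3:**
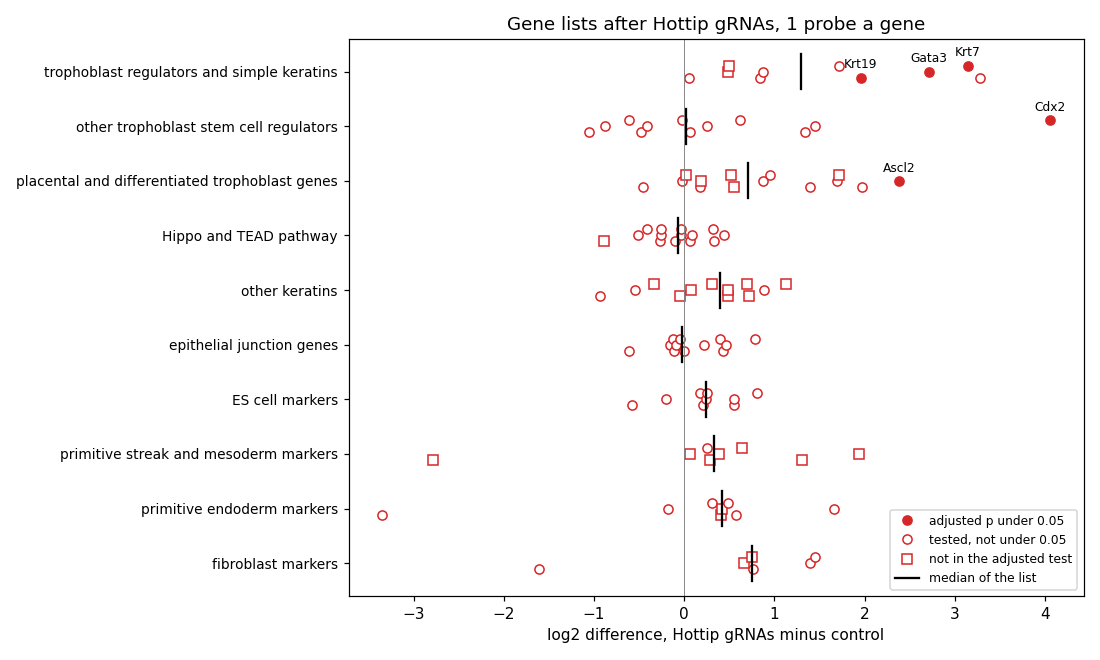
Log2 difference after Hottip gRNAs against the control (x axis) for each gene of 10 lists, at the brightest probe of the gene. Filled circles were called by limma, open circles were tested and not called, squares were outside the test, and black lines mark medians. Krt19, Gata3, Krt7, Cdx2 and Ascl2 are the 5 filled points.

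Markers of other cells were counted beside these results. Of the ES cell markers 0 of 9 were called after Hottip gRNAs and 0 had an unadjusted p-value under 0.05 (median 0.24), and their summed linear level, with outlier spots kept, ran from 155 to 343 on Hottip gRNA arrays and from 130 to 433 on control arrays. Of 8 primitive streak and mesoderm markers, lineages that also express Eomes, 1 was tested and 0 were called, with summed levels of 1.05 to 1.46 after Hottip gRNAs and 0.642 to 91.3 in the control, where Foxf1 on control array 3 (level 6.49) set the upper end. Outside the test, T (brachyury) differed by 1.31 after Hottip gRNAs without overlap and Gsc by 1.93 with overlap, where the median over all probes outside the test was 0.42. Each was detected well above background after Hottip gRNAs in 1 of 4 arrays and in 0 of 3 controls, so no fold is read from either. Of 8 primitive endoderm markers, whose lineage expresses Krt8, Krt18 and Krt19, 6 were tested and 0 called. Gata6 had the largest upward difference of them, with levels of 2.78, 1.78, 2.80 and 2.36 after Hottip gRNAs and 1.11, 0.70 and 0.51 in the control. These did not overlap, and the difference of 1.66 was not called (adjusted p = 0.0925). The summed linear level of the primitive endoderm list ran from 5.22 to 9.63 on Hottip gRNA arrays and from 3.74 to 80.3 on control arrays, where Dab2 on control array 3 (level 6.27) set the upper end. Dab2 had the largest downward difference, −3.35, with overlap (SE 1.42, adjusted p = 0.558), and was at −0.38 and −0.92 on the other control arrays. Of 6 fibroblast markers 4 were tested and 0 called, with summed levels of 0.916 to 8.28 after Hottip gRNAs and 0.853 to 2.61 in the control. The part of any of these cells in the changes of Gata3, Krt7 and Krt19 was not tested.

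**Figure D4:**
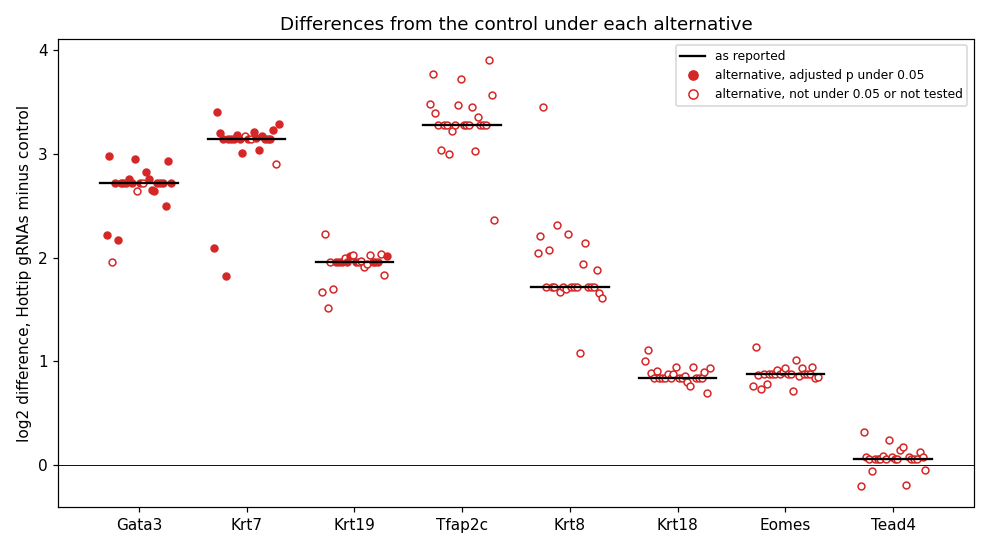
Log2 difference of Hottip gRNAs from the control (y axis) for the 8 tested genes. The black line is the value as reported, and each point is 1 alternative in processing, samples or fit, filled where the adjusted p was under 0.05. Gata3 and Krt7 are filled in 21 of the 23 alternatives that tested them, Krt19 in 10 of 24, and Tead4 alone has points on both sides of 0.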

How the data were processed

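RNA from 10 cultures was hybridised to one-colour Agilent arrays. The processed intensity in the deposited scanner files was made with Feature Extraction 11.5.1.1 by background subtraction and, per the file headers, detrending (not on Hottip gRNA replicates 3 and 4). A deposited table of log2 values was used as an alternative. These values ranked like the median signal minus local background, and their medians lay between 7.19 and 7.2 on all arrays. How they were scaled is not stated in the sources used here.

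From the processed intensity, log2 minus each array's 75th percentile was taken, outlier spots were left out, and spots of a probe were averaged. Accessions were matched to RefSeq genes of GRCm38.p6 (27656 of 55681 probes); the array design names mm9, so probes carry no coordinates. Where a gene had several probes, the brightest represents it. The 3 groups were fitted with limma 3.58.1 (R 4.3.3) without a replicate block, with two-sided exact permutation of the arrays for single genes. The code was checked on simulated data. Alternatives changed scaling, background, filter, slide, samples and fit. Normexp used the median spot signal because no mean signal is in the files. The genes and lists were chosen with earlier results of these data known. List genes are named where called, or where their probe signal or change was the largest of their list, and a few others after their values were seen. Prl2c2 matched no probe and is not analysed here. The number of arrays and the signal over background limit precision.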

Additional observations from a re-analysis of the deposited data

Results flagged for a closer look

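Gata3 changed differently with the guide pools. Its change from the control was 2.72 log2 units larger after Hottip gRNAs than after Hoxa13 gRNAs (limma, SE 0.37, adjusted p = 0.0149), and all 4 Hottip gRNA arrays were above all 3 Hoxa13 gRNA arrays. It was called in 18 of the 23 alternatives that tested it, and not on the slide with all 3 groups (adjusted p = 0.0716), without Hoxa13 gRNA replicate 2 (0.0736) or 3 (0.0619), with the replicate block (0.125) or with local medians subtracted (0.163).

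Cdx2 differed between the guide pools in the same way, by 3.31 log2 units (limma, SE 0.39, adjusted p = 0.00679), with 4 of 4 arrays above 3 of 3, and it was not called without Hoxa13 gRNA replicate 2 (3.14, adjusted p = 0.0620) or with the replicate block (3.26, adjusted p = 0.102). Hoxa13 gRNA replicates 1 and 2 lay on another slide than the other 8 arrays, and on the slide with all 3 groups Cdx2 differed by 3.80 (adjusted p = 0.0281).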

How the results depend on the processing

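Gata3 and Krt7 were called after Hottip gRNAs in 21 of 23 alternatives that tested them, Krt19 in 10 of 24 and Cdx2 in 22 of 23. With each array left out in turn, 1 to 3 genes of the set were called against the control (1, Gata3, without control replicate 2) and 0 to 1 against Hoxa13 gRNAs, while over all probes 56 to 240, 3 to 130 and 11 to 116 were called for Hottip gRNAs against the control, Hoxa13 gRNAs against the control and the guide pools against each other. The counts as reported were 164, 40 and 87. With only probes well above background on all 10 arrays, which takes Gata3 and Krt7 out of the test, 0 genes of the set were called in any comparison and 5, 0 and 0 probes. With local medians subtracted, 1 gene of the set (Krt7) was called against the control and 134 probes between the guide pools. Between the guide pools quantile normalization called 2 genes (Gata3 and Krt19), and the slide with all 3 groups called 0 genes and 48 probes.

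The replicate number as a block called 0 genes of the set in each comparison and 13, 2 and 8 probes, and Cdx2 then had an adjusted p of 0.0554 against the control and of 0.102 between the guide pools. Deviations from the group means correlated between −0.233 and 0.141 for samples of the same number, over 9 pairs, with 1 over 0.1. So few pairs cannot show whether cultures of the same number were handled together.

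Against the control after Hottip gRNAs, the authors' log2 values called 109 probes, outlier spots kept 107 and the slide as a block 414. For Hoxa13 gRNAs, centring on the median called 88, no filter 16, the slide as a block 73, only the groups compared 22, outlier spots kept 17 and outlier spots left out before scaling 8. Between the guide pools, no filter called 31, the slide as a block 133, outlier spots left out before scaling 33 and a prior from tested probes 143. The cause of these moves was not tested.

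Values near 0, none of them called, changed sign. Gata3 after Hoxa13 gRNAs was 0.28 with quantile normalization, 0.076 with median centring, 0.045 with normexp and −0.22 to 0.26 with an array left out. Krt19 after Hoxa13 gRNAs was −0.12 with the slide as a block and on the slide with all 3 groups. Krt18 between the guide pools was 0.18 with quantile normalization, 0.11 with median centring, 0.40 in the authors' values, 0.19 with normexp, 0.60 with the slide as a block and on the slide with all 3 groups, 0.028 with the replicate block, 0.024 with outliers left out before scaling, 0.69 with local medians and −0.41 to 0.43 with an array left out. Krt8 between the guide pools was −0.37 to 0.70 with an array left out. Tead4 between the guide pools was −0.02 with normexp, −0.44 with the slide as a block and on the slide with all 3 groups, and −0.036 to 0.64 with an array left out. Tead4 after Hottip gRNAs was −0.20 in the authors' values, −0.053 with normexp and −0.19 to 0.18 with an array left out, and after Hoxa13 gRNAs 0.50 with the slide as a block and on the slide with all 3 groups and −0.59 to 0.091 with an array left out. Signal over background limits Elf5, Hand1, Tead4 and the control level of Krt7.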
